A study of Mus musculus with 12 samples.

Results

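The miR-183 cluster is a set of 3 microRNAs (miRNAs), small RNAs that hold back messenger RNAs by base pairing, named miR-183, miR-96 and miR-182, whose hairpins lie close together in the genome. The members described here are the guide strands mmu-miR-183, mmu-miR-96 and mmu-miR-182, found by these names on the array with every probe of each. They are 3 of the 611 mouse miRNAs that the array measures, and all 3 were among the 157 miRNAs tested. The cluster was chosen by measured values, namely the differences of miR-96 between MDI or lithium cells and preadipocytes. Differences from preadipocytes are therefore given as a description without a test, and so is the interaction, which uses the same arrays. Tests are given for lithium plus MDI cells against lithium cells and against MDI cells, which share arrays with those differences.

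MicroRNAs were measured in 12 samples of 3T3-L1 cells, an established mouse preadipocyte line that forms fat cells in culture, with 1 single-colour array per sample and 3 samples per group. Lithium plus MDI cells received lithium chloride and were then given the differentiation medium MDI. Lithium cells were preadipocytes given lithium chloride at 25 mM, an inhibitor of the kinase GSK3 that the submitters used to activate WNT signalling. MDI cells, named mature adipocytes by the submitters, were kept for 3 days in a medium of isobutylmethylxanthine, dexamethasone and insulin, for 2 days in insulin alone and for 2 days in plain medium, ending on day 7. Preadipocytes are listed with neither agent. The labels give no end day for the other 3 groups, so time in culture and treatment cannot be told apart. The labels do not state whether replicates came from separate cultures. Each p-value reflects only the spread between samples of the same group, possibly a technical one, pooled over all 4 groups. The limma fit also draws the spread of each miRNA towards that of all tested miRNAs.

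Between 126 and 178 mouse miRNAs were detected per array, 0 spots were saturated, and the number of arrays limits the precision. The arrays lay on 2 slides. Slide 1 held the 3 preadipocyte arrays and MDI array 1, and slide 2 held the other 8, so no slide held preadipocytes beside a group given lithium. The 3 arrays that stood apart correlated least with their own group over the tested miRNAs, namely lithium plus MDI array 3 (mean r = 0.924), lithium array 1 (0.942) and preadipocyte array 3 (0.939). Lithium plus MDI array 2 came next, at 0.944. Values are also given without those 3 arrays where that moves a result. The 8 fibroblast and mesenchymal marker miRNAs examined were all detected and tested. Of 27 marker miRNAs of epithelium, muscle, blood, neural tissue, liver and endothelium, miR-205 was detected on 3 arrays and the neural miR-128 on 7. The rest were detected on no array, as were 406 of all 611 mouse miRNAs.

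The miR-183 cluster is best known from sense organs. Its members are abundant in the retina and in the hair cells of the inner ear, and base changes in the seed of miR-96 cause hearing loss in mice and in people. A seed is the stretch near the 5′ end of a miRNA that pairs with its targets. Members of the cluster have been reported to repress the messenger RNA of FOXO1, a transcription factor that insulin signalling holds out of the nucleus and that restrains fat cell differentiation. In human gastric cancer cells, GSK3 beta was reported to hold the cluster down through beta-catenin, the transducer of WNT signalling. In 3T3-L1 cells, miR-183 has been reported to promote fat cell formation.

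The 3 guide strands are shown because their seeds both join and separate the members. The sequences are those of RefSeq on the mouse build GRCm38.p6, written 5′ to 3′ with the seed, bases 2 to 8, in capitals.
miR-183: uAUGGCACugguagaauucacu
miR-96: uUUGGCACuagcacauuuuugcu
miR-182: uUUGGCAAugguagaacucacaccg
The seeds of miR-96 and miR-182 share bases 2 to 7, UUGGCA, and part at base 8. Of the 1679 mature mouse miRNAs in the RefSeq table, 3 carry these bases 2 to 7, and the other one is miR-1271-5p, which was not measured here. The seeds of miR-96 and miR-183 share bases 3 to 8 and part at base 2. The seeds of miR-182 and miR-183 share bases 3 to 7. Over the whole strand, seed included, the nearest pair is miR-182 and miR-183. They are identical at 18 of 22 positions counted from the 5′ end without gaps, with the run UGGUAGAA in common. By the same count miR-96 and miR-183 are identical at 13 of 22 positions, and miR-96 and miR-182 at 12 of 23. The probes' own sequences were not used here, and how far a probe for one member takes up another was not tested.

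The hairpins are shown because they place the guide strand, in capitals, on the 5′ arm of each precursor.
Mir183: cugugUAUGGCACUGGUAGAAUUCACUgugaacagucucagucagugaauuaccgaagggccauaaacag
Mir96: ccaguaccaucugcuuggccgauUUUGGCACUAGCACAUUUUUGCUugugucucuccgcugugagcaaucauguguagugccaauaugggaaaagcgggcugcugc
Mir182: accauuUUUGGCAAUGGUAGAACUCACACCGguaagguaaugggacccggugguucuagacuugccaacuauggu
On GRCm38.p6 all 3 lie on the minus strand of chromosome 6, Mir183 at chr6:30169668-30169737, Mir96 at chr6:30169446-30169551 and Mir182 at chr6:30165918-30165992. Read along that strand, Mir183 comes first, Mir96 follows after 116 bases, and Mir182 follows Mir96 after 3453 bases. All 3 lie within the span of the annotated long noncoding RNA gene Mirc35hg, at chr6:30158640-30174125. The RNA of that gene is not measured by these arrays.

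Each member had 2 probes of 10 spots each. A miRNA was represented by its brighter probe, and detection of a probe required that the scanner software had marked the majority of its usable spots as well above background. The brighter probes of miR-183, miR-96 and miR-182 were detected on all 12 arrays. Their spots had a median coefficient of variation per array of 5.32% for miR-183, 4.26% for miR-96 and 5.16% for miR-182. Between the arrays of a group the pooled SD on the log2 scale was 0.70 for miR-183, 0.34 for miR-96 and 0.62 for miR-182. The level used below is log2 of the background-subtracted intensity divided by the array's 75th percentile over the 181 probes detected on all arrays, so that 0 is that percentile.

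miR-96, the member whose seed mutations affect hearing, had log2 levels of -0.02, -0.51 and -0.96 in lithium plus MDI cells, -0.12, -0.36 and -0.17 in lithium cells, -0.44, -0.46 and -0.47 in MDI cells, and -1.75, -1.25 and -2.19 in preadipocytes. The 3 preadipocyte arrays were the lowest of the 12, and none of the 9 others overlapped them. These levels chose the cluster, so the differences that follow describe them. The difference from preadipocytes was 1.24 for lithium plus MDI cells (2.36-fold), 1.51 for lithium cells (2.85-fold) and 1.27 for MDI cells (2.41-fold), each with an SE of 0.30. The median difference of all 157 tested miRNAs was 0.30, -0.07 and 0.10 in the same order. The dimmer probe of miR-96, detected on all arrays, gave 1.39, 1.64 and 1.36. In RNA from bulk cells, fewer cells with a miRNA and less of it per cell cannot be told apart.

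miR-182, which shares bases 2 to 7 with miR-96, had log2 levels of -1.25, -1.35 and -2.90 in lithium plus MDI cells, -1.88, -1.51 and -1.65 in lithium cells, -1.99, -1.48 and -1.47 in MDI cells, and -2.69, -2.45 and -3.88 in preadipocytes. The preadipocyte arrays lay below all lithium and MDI arrays, while lithium plus MDI array 3 fell inside the preadipocyte range. The difference from preadipocytes was 1.17 for lithium plus MDI cells (2.25-fold), 1.32 for lithium cells (2.50-fold) and 1.36 for MDI cells (2.56-fold), each with an SE of 0.45. Its dimmer probe was well above background on 3 arrays, 1 of lithium plus MDI and 2 of lithium cells, so it gives no second measure of these differences.

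miR-183, whose seed parts from the other seeds at base 2, had log2 levels of -0.51, -0.53 and -1.69 in lithium plus MDI cells, -0.75, -1.47 and -1.57 in lithium cells, -0.64, -1.12 and -1.14 in MDI cells, and -0.93, -0.57 and -2.64 in preadipocytes. All groups overlapped, and the preadipocyte arrays alone spanned more than the other 9 together. The difference from preadipocytes was 0.47 for lithium plus MDI cells, 0.12 for lithium cells and 0.41 for MDI cells, each with an SE of 0.49, larger than the difference itself. The dimmer probe, detected on all 12 arrays, gave 0.70, 0.30 and 0.54.

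**Figure D1:**
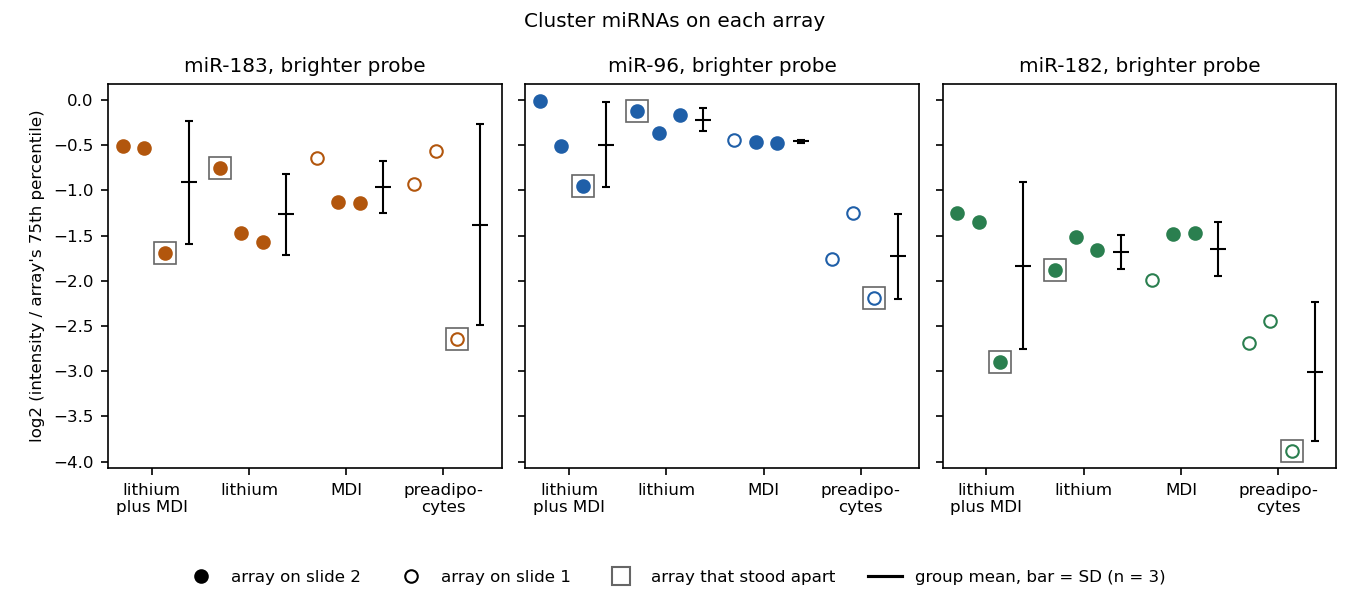
Log2 level of the brighter probe of each cluster miRNA on each of the 12 arrays, by group, with array order within a group as in the labels, squares around the 3 arrays that correlated least with their group, and bars for the group mean and SD (n = 3). For miR-96 the 3 preadipocyte arrays, at -2.19 to -1.25, lie below the other 9, while for miR-183 the groups overlap.

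Groups that do not overlap were common on these arrays. Lithium plus MDI cells and preadipocytes did not overlap in 28 of 157 miRNAs (17.8%), lithium cells and preadipocytes in 47 (29.9%), and MDI cells and preadipocytes in 42 (26.8%). In the cluster this held for miR-96 in all 3 comparisons and for miR-182 with lithium and with MDI cells. Because these comparisons chose the cluster, nothing is read from its count.

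**Figure D2:**
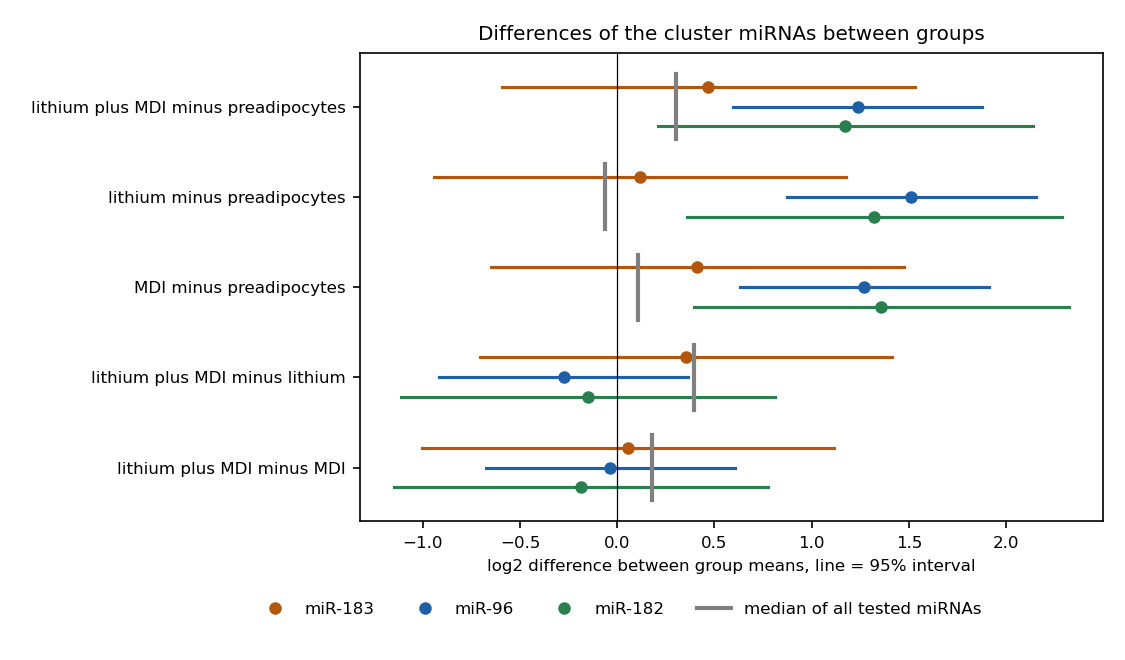
Log2 difference between group means for miR-183, miR-96 and miR-182, with 95% intervals from the limma fit as lines and the median difference of all 157 tested miRNAs as grey bars. Against preadipocytes the points of miR-96 and miR-182 lie between 1.17 and 1.51, and in lithium plus MDI cells against lithium or MDI cells all intervals of the cluster include 0.

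Lithium plus MDI cells were compared with lithium cells to see what the differentiation medium did in cells that had lithium. No member of the cluster passed the threshold of 0.05 on the adjusted p. miR-96 differed by -0.28 (95% interval -0.92 to 0.37, limma adjusted p = 0.509), and the lithium plus MDI arrays ranged from -0.96 to -0.02 against -0.36 to -0.12 in lithium cells. miR-182 differed by -0.15 (-1.11 to 0.81, limma adjusted p = 0.804). miR-183 differed by 0.35 (-0.71 to 1.41, limma adjusted p = 0.635). None of the 157 miRNAs passed (0%; 48 had an unadjusted p under 0.05), and the median difference of all was 0.39. The groups overlapped for all 3 members, while 53 of the 157 miRNAs (33.8%) did not overlap.

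The difference of miR-183 in this comparison changed when the arrays that stood apart were left out. Without those 3 arrays the difference was 1.00 (limma adjusted p = 0.006), as lithium plus MDI arrays 1 and 2 were at -0.51 and -0.53 and lithium arrays 2 and 3 at -1.47 and -1.57. In that fit 88 miRNAs passed and the median difference of all was 0.55. Those 3 arrays were picked in these data for their low correlation with their own group. Leaving them out therefore tends to lower the spread within groups, and neither that p nor that count is read as a test. miR-96 differed by 0.00 and miR-182 by 0.28 in the same fit. Leaving out single arrays gave 0.15 to 0.75 for miR-183.

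Lithium plus MDI cells were compared with MDI cells to see what lithium did in cells given the differentiation medium. Again no member passed, and neither did any of the 157 miRNAs (0%; 6 had an unadjusted p under 0.05). miR-96 differed by -0.03 (95% interval -0.68 to 0.61, limma adjusted p = 0.996), miR-182 by -0.19 (-1.15 to 0.78, limma adjusted p = 0.981) and miR-183 by 0.06 (-1.004 to 1.12, limma adjusted p = 0.996). The groups overlapped for all 3 members, and 19 miRNAs (12.1%) did not overlap.

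The group means of miR-96 were -0.49 ± 0.47 in lithium plus MDI cells, -0.22 ± 0.13 in lithium cells, -0.46 ± 0.01 in MDI cells and -1.73 ± 0.47 in preadipocytes (SD, n = 3 each). Those of miR-182 were -1.83 ± 0.92 in lithium plus MDI cells, -1.68 ± 0.18 in lithium cells, -1.65 ± 0.30 in MDI cells and -3.005 ± 0.766 in preadipocytes. Ordered from high to low, miR-96 was highest in lithium cells, then in MDI, lithium plus MDI and preadipocyte cells. Lithium plus MDI cells overlapped both lithium and MDI cells, and lithium cells were not compared with MDI cells. For miR-182 the means of the 3 treated groups lay within their own spread of each other, and for miR-183 those of all 4 groups did. The interaction (lithium plus MDI minus lithium, less MDI minus preadipocytes) was -1.55 (SE 0.42) for miR-96, -1.51 (SE 0.63) for miR-182 and -0.06 (SE 0.70) for miR-183. Its median over all tested miRNAs was 0.26.

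The interaction of miR-96 and miR-182 contains the preadipocyte difference. MDI cells were higher than preadipocytes by 1.27 for miR-96 in cells without lithium, and lithium plus MDI cells differed from lithium cells by -0.28. Without the 3 arrays that stood apart the interaction was -1.04 for miR-96, -0.64 for miR-182 and 1.22 for miR-183.

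Differences between members on the same array do not depend on the factor by which an array is scaled. Only their change between groups is read here, since the level of one probe cannot be set against that of another. miR-182 minus miR-96 differed little between groups: the means of the 3 treated groups lay from -0.19 to 0.09 around that of preadipocytes. On single arrays it ranged from -1.94 to -0.84 in lithium plus MDI cells, and all groups overlapped.

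miR-183 minus miR-96 was -0.49, -0.02 and -0.74 on the lithium plus MDI arrays, -0.63, -1.10 and -1.40 on the lithium arrays, -0.19, -0.66 and -0.67 on the MDI arrays, and 0.83, 0.68 and -0.46 on the preadipocyte arrays. Preadipocyte arrays 1 and 2 lay above all other arrays, and preadipocyte array 3 lay among the treated arrays. The mean differed from that of preadipocytes by -0.77 in lithium plus MDI cells, -1.40 in lithium cells and -0.86 in MDI cells. Lithium cells and preadipocytes did not overlap, and the other pairs of groups did. The share of all miRNA pairs that do not overlap was not counted. Of single miRNAs, 47 of 157 (29.9%) did not overlap in that comparison. The -1.40 is made up of 0.12 for miR-183 and 1.51 for miR-96. Because that miR-96 difference helped to choose the cluster, nothing is read from this separation. miR-183 minus miR-182 differed from preadipocytes by -0.70 in lithium plus MDI cells, -1.21 in lithium cells and -0.95 in MDI cells. This quantity parted by slide. On slide 1 it was 1.76, 1.88 and 1.24 on the preadipocyte arrays and 1.35 on MDI array 1. On the arrays of slide 2 it ranged from 0.05 to 1.20, with MDI arrays 2 and 3 at 0.36 and 0.33. Whether slide or treatment gave the difference was not tested.

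**Figure D3:**
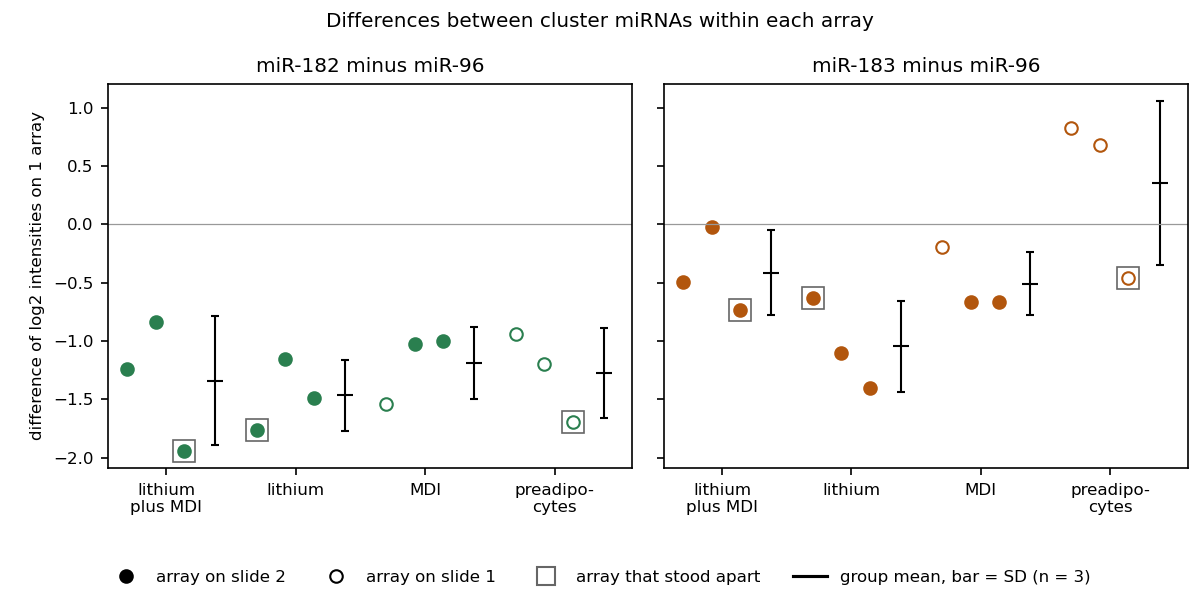
Difference of log2 intensities between members on each array, miR-182 minus miR-96 on the left and miR-183 minus miR-96 on the right, by group, with bars for the group mean and SD (n = 3). On the right, preadipocyte arrays 1 and 2 lie at 0.83 and 0.68, above all arrays of the 3 treated groups, while on the left the groups overlap.

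How much the members differed from preadipocytes depended on the scaling, because the arrays differed in overall brightness. The 75th percentile used as the scale lay between 503 and 780 on the preadipocyte arrays and between 264 and 477 on the other 9. Before scaling, miR-96 had intensities of 262, 279 and 246 in lithium plus MDI cells, 291, 319 and 368 in lithium cells, 194, 278 and 247 in MDI cells, and 149, 242 and 171 in preadipocytes. On that scale lithium and lithium plus MDI cells still lay above all preadipocyte arrays, while MDI cells overlapped them. Without scaling, the difference of miR-96 from preadipocytes was 0.51 in lithium plus MDI cells, 0.82 in lithium cells and 0.37 in MDI cells, where the median of all tested miRNAs was -0.33, -0.69 and -0.70.

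miR-183 changed sign with the scale. Its unscaled intensities were 187, 275 and 147 in lithium plus MDI cells, 188, 148 and 139 in lithium cells, 170, 175 and 156 in MDI cells, and 265, 389 and 125 in preadipocytes. Preadipocyte array 2 was the brightest of the 12 for this miRNA and preadipocyte array 3 the dimmest. Without scaling the differences from preadipocytes were -0.25 in lithium plus MDI cells, -0.58 in lithium cells and -0.49 in MDI cells, against 0.47, 0.12 and 0.41 with scaling. Unscaled miR-182 intensities were 111, 156 and 64.1 in lithium plus MDI cells, 86.0, 144 and 131 in lithium cells, 66.7, 137 and 124 in MDI cells, and 77.9, 106 and 53.0 in preadipocytes, and all groups overlapped. A factor per array moves all miRNAs alike, so the distance from the median of all tested miRNAs is nearly fixed between these scales. For lithium cells minus preadipocytes that distance was 1.58 for miR-96, 1.39 for miR-182 and 0.18 for miR-183. Settings that can move it gave 1.28, 0.81 and 0.35 with normexp background correction, 1.62, 0.90 and 0.70 with the slide as a block, and 1.51, 1.26 and -0.50 without the 3 arrays that stood apart, in the same order.

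**Figure D4:**
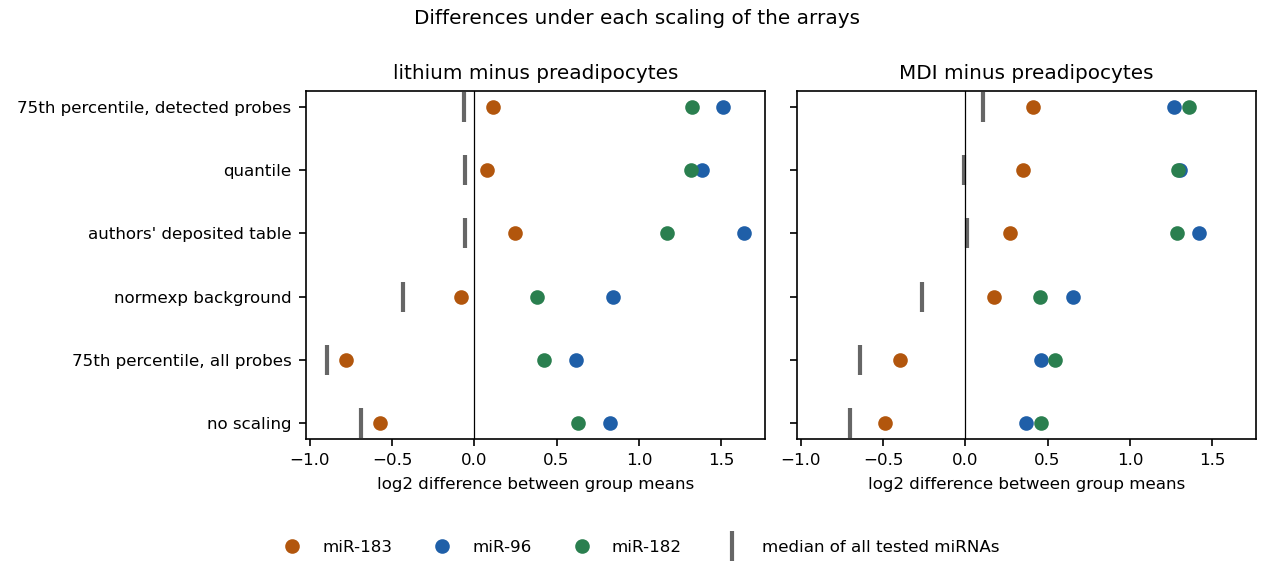
Log2 difference of lithium cells (left) and MDI cells (right) from preadipocytes for each member under 6 ways of scaling or correcting the arrays, with the median of all tested miRNAs as a grey bar. miR-96 and miR-182 stay above 0 throughout, at 0.37 or more, while miR-183 lies on either side of 0.

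Slide and treatment overlap in these differences. MDI array 1 was the only treated array on the slide of the preadipocytes, and against them it gave 1.29 for miR-96, 1.02 for miR-182 and 0.74 for miR-183, a comparison chosen after seeing the data. With the slide as a block, lithium plus MDI minus preadipocytes was 1.26 for miR-96, 0.66 for miR-182 and 0.96 for miR-183, so that miR-183 stood above miR-182, the other way round than without the block. Lithium minus preadipocytes was 1.53 for miR-96, 0.81 for miR-182 and 0.61 for miR-183 in that fit. It reaches the groups given lithium through the MDI arrays of both slides. For the groups given lithium, slide and group cannot be told apart within a slide.

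Of the 156 other tested miRNAs, miR-182 had the pattern most like that of miR-96 over the 12 arrays, at Pearson r = 0.892 and Spearman rho = 0.629. Without the 2 arrays farthest from the median, both preadipocytes, r was 0.738. miR-182 ranked first under each of 6 other treatments of the values, with r from 0.720 to 0.914, and miR-96 also ranked first for miR-182. miR-183 ranked 28 at r = 0.508. Under the other treatments its r ran from -0.205 at rank 103, without the 3 arrays that stood apart, to 0.672 at rank 2, with normexp background correction. These are descriptions over arrays that share groups, slides and scaling factors.

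The next most like miR-96 were miR-669f (r = 0.816), miR-877* (0.798), miR-31* (0.760) and miR-30a* (0.675). miR-31*, a passenger strand, ranged from -3.22 to -2.21 in lithium plus MDI cells, from -3.49 to -2.99 in lithium cells, from -2.89 to -2.35 in MDI cells and from -4.41 to -3.86 in preadipocytes. miR-877* lay at the floor of -4.97 on all 3 preadipocyte arrays, where values have no order, and between -4.94 and -4.02 on the treated arrays. miR-669f lay at or next to the floor on all 3 preadipocyte arrays. miR-30a* was at the floor on preadipocyte arrays 1 and 3 and on lithium plus MDI array 3. Under the other treatments of the values the ranks fell as low as 24 for miR-669f, 46 for miR-877*, 15 for miR-31* and 32 for miR-30a*.

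In preadipocytes and in lithium plus MDI cells the same array was lowest for all 3 members. Preadipocyte array 3 was the lowest of the 12 in each member, and lithium plus MDI array 3 was the lowest of its group in each. In lithium and in MDI cells the members parted: on array 1 of each group miR-96 and miR-183 were the highest of the group and miR-182 the lowest. The deviations from group means correlated at r = 0.811 for miR-96 with miR-182, 0.830 for miR-96 with miR-183 and 0.752 for miR-182 with miR-183. Without preadipocyte array 3 and lithium plus MDI array 3, left out after seeing the data, these were 0.124, 0.399 and -0.643, so the higher values rest on those arrays.

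The passenger strand of the cluster measured here, miR-183*, had 4 probes of 5 spots. Its brightest probe was detected on 2 lithium plus MDI arrays, 1 lithium array, 1 MDI array and 2 preadipocyte arrays, with intensities of 3.45 to 37.0, and the other 3 probes on none. It did not pass the detection filter and was not tested. No probe on the array carried the name miR-96* or miR-182*, so the passenger strands of miR-96 and miR-182 were not measured under these names.

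Other miRNAs reported to target FOXO1 were examined beside the cluster. Of the 6 listed, miR-9, miR-153 and miR-223 were detected on no array, and miR-27a, miR-27b and miR-186 were tested. In lithium plus MDI cells against lithium cells 0 of the 3 passed, with differences of 0.68 for miR-27a, 1.57 for miR-27b and 0.43 for miR-186 (limma adjusted p = 0.085, 0.085 and 0.231), and a median of 0.68 beside 0.39 for all tested miRNAs. Against MDI cells 0 of the 3 passed, with differences of 0.44, 0.78 and 0.31. Against preadipocytes the differences in lithium plus MDI, lithium and MDI cells were 1.31, 0.62 and 0.87 for miR-27a, 1.00, -0.57 and 0.22 for miR-27b, and 0.20, -0.23 and -0.11 for miR-186, with list medians of 1.00, -0.23 and 0.22.

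Other miRNAs of sense organs and epithelia were examined too. Across all probes, 406 of 611 mouse miRNAs went undetected on every array, so most of any list would be undetected. Of 12 such miRNAs on the array, miR-7a was detected on all 12 arrays and miR-205 on 3. The others were detected on no array, among them the miR-200 family members miR-200a, miR-200b and miR-200c. miR-7a, a miRNA of neurons and endocrine cells, was the one tested. It differed by 1.84 in lithium plus MDI cells against lithium cells and by 0.25 against MDI cells, and did not pass (limma adjusted p = 0.147 and 0.981). The brighter probes of miR-183, miR-96 and miR-182 were detected on all 12 arrays, as was that of miR-7a. Those of these miR-200 members were detected on 0.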

How the data were processed

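Single-colour Agilent miRNA arrays of 12 samples were used in 4 groups of 3, taken from the sample titles. Intensities of spots were deposited as background-subtracted by Agilent Feature Extraction (version 10.5.1.1 per the file headers, 9.5.3 per the submitters' processing notes) and not normalized between arrays. The authors also deposited a value table, read from its values as log2, whose normalization is not given in the sources used here. Its columns correlated with log2 total signal at r = 0.948 to 0.991 and had medians of 0.00175 to 0.0958.

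Outlier spots were dropped and the remaining spots averaged per probe. Signals were scaled to the 75th percentile of the 181 mouse probes detected throughout, floored at the 5th percentile of well-above-background values (log2 -4.97), and log2 was taken. The brightest probe represented a miRNA, and the 157 miRNAs with full detection in 1 or more groups entered a limma fit (version 3.58.1, R 4.3.3) of 4 group means over 12 arrays (two-sided, Benjamini-Hochberg over 157, threshold 0.05). The fit was tested on simulated data. Named were the 3 members, every probe of them, their passenger strands, the 5 miRNAs most like miR-96 by Pearson r, and the lists. The members and lists were chosen with earlier results of these data known. The main fit did not use the replicate numbers of the titles as pairs. Whether they pair the samples was not settled, as samples with the same number deviated together at r = -0.482 to 0.473 over 18 pairs.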

Additional observations from a re-analysis of the deposited data

Results flagged for a closer look

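The dimmer probe of miR-182 was used in no comparison. It was well above background on 3 arrays, lithium plus MDI array 2 and lithium arrays 2 and 3, all on slide 2. It was so on 0 MDI arrays and on 0 preadipocyte arrays. Its intensity ranged from 5.92 to 18.3 in lithium plus MDI cells, from 8.89 to 17.9 in lithium cells, from 5.38 to 16.6 in MDI cells and from 2.65 to 4.87 in preadipocytes. On the other 9 arrays it was not well above background, so its values there have no order. With groups of 3, no test for a single outlying array was made.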

How the results depend on the processing

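Differences below are on the log2 scale, for lithium plus MDI cells, lithium cells and MDI cells minus preadipocytes in that order. With the 75th percentile over all mouse probes they were 0.19, 0.62 and 0.46 for miR-96, 0.12, 0.43 and 0.55 for miR-182, and -0.58, -0.78 and -0.40 for miR-183. Without scaling they were 0.51, 0.82 and 0.37 for miR-96, 0.45, 0.63 and 0.46 for miR-182, and -0.25, -0.58 and -0.49 for miR-183. With normexp background correction they were 0.61, 0.85 and 0.65 for miR-96 and 0.29, 0.38 and 0.45 for miR-182, and lithium minus preadipocytes was -0.083 for miR-183. In these 3 settings the interaction was -0.89, -0.68 and -0.89 for miR-96, -0.85, -0.64 and -0.54 for miR-182, and 0.60, 0.81 and 0.095 for miR-183, and with the authors' deposited table it was -1.90 for miR-96. Without the 3 arrays that stood apart, the interaction was -1.04, -0.64 and 1.22 for miR-96, miR-182 and miR-183, and miR-183 differed from preadipocytes by -0.77 in lithium and -0.22 in MDI cells. In that fit lithium plus MDI minus lithium was 0.0035 for miR-96, 0.28 for miR-182 and 1.00 for miR-183. The limma adjusted p of these was 0.995, 0.321 and 0.006, with arrays left out for their low correlation, so none is read as a test. Lithium plus MDI minus MDI was 0.20 for miR-96 and 0.35 for miR-182 in the same fit.

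Lithium plus MDI minus MDI turned sign for miR-96 without scaling (0.14) and in its dimmer probe (0.034), and for miR-183 with quantile normalization (-0.22), the 75th percentile over all probes (-0.18), the authors' deposited table (-0.13) and the scanner's total signal (-0.046). Lithium plus MDI minus lithium was -0.11 for miR-183 in the authors' deposited table. None of these passed, and the causes were not tested.

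Leaving out 1 array at a time gave, for lithium plus MDI minus lithium, -0.52 to -0.05 for miR-96, -0.44 to 0.38 for miR-182 and 0.15 to 0.75 for miR-183. For lithium plus MDI minus MDI it gave -0.27 to 0.20, -0.47 to 0.35 and -0.15 to 0.45. For miR-183 against preadipocytes it gave -0.16 to 0.87 in lithium plus MDI cells and -0.52 to 0.52 in lithium cells. In MDI cells it gave -0.22 to 0.82. Each of these differences turned sign without preadipocyte array 3, and that of lithium cells also without lithium array 1 (-0.14). The interaction of miR-183 ran from -0.46 to 0.57. Against preadipocytes miR-96 and miR-182 stayed at 0.74 or above.

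In lithium plus MDI against lithium cells, where 0 miRNAs passed, 7 passed with quantile normalization, 1 without scaling, 1 in the authors' deposited table, 10 with the slide as a block, 1 with only those groups or within slide 2, 88 without the 3 arrays, and 0 to 38 with 1 array left out (24 without preadipocyte array 3, 10 without MDI array 1, 32 without lithium array 1 and 38 without lithium plus MDI array 3). The count of 88 came from leaving out arrays picked for their low correlation with their own group, which tends to lower the spread. Against MDI cells 0 passed in every setting run. Samples with the same replicate number deviated together at r = -0.482 to 0.473 over 18 pairs, and 6 of 12 arrays correlated best with their own number. With the replicate number as a block, 16 miRNAs passed in lithium plus MDI against lithium cells. Every group holds all 3 numbers, so this block cannot move the differences between groups. Those of the members stayed at -0.28 for miR-96, -0.15 for miR-182 and 0.35 for miR-183, which is no check of them.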
